A study of Rattus norvegicus with 9 samples.

Results

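The genes described here are 10 members of the erbB and transforming growth factor (TGF) signalling systems, measured in the hypothalamus of female rats before and during puberty. They are the receptors Egfr, Erbb2, Erbb3 and Erbb4, the erbB ligands Tgfa and Nrg1, the sheddase Adam17, the ligands Tgfb1 and Tgfb2 and the receptor Tgfbr1. Every probe set (the group of short probes that reads 1 transcript on an Affymetrix array) was taken whose platform annotation gives exactly 1 gene symbol, that of a member. This gave 22 probe sets for the 10 genes, out of 31042 probe sets and 14217 named genes. Nrg1 has 8 probe sets, Egfr has 3, Tgfa, Tgfb2 and Tgfbr1 have 2 each, and the other members have 1 each.

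The study followed normal sexual development in 3 stages with 3 arrays each. Juvenile animals were 26 days old and are named by the labels as the controls (replicates 1, 2 and 3), early pubertal animals were 29 days old (replicates 7, 8 and 10) and late pubertal animals were 31 days old (replicates 12, 14 and 20). All animals were described as normal females, and each array holds RNA from the hypothalamus of 1 rat, with no transgene and no drug named. The sources used here name no strain, batch or date and no criterion for the stages, and age and stage go together, so their effects cannot be told apart. The values are bulk tissue signals, in which fewer cells of a type and less RNA per cell cannot be told apart.

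The erbB receptors are tyrosine kinases that work as pairs. EGFR binds TGF-alpha and related ligands, ERBB4 and ERBB3 bind neuregulins, ERBB2 has no known ligand of its own and acts as the preferred partner, and ERBB3 has little kinase activity. TGF-alpha and most neuregulins are made as membrane proteins and released by metalloproteases such as ADAM17. In the female hypothalamus, TGF-alpha acting on astrocytic EGFR and ERBB2, and neuregulin acting on ERBB4, are known to make astrocytes and tanycytes release prostaglandin E2, which stimulates gonadotropin-releasing hormone neurons, and astrocyte-derived TGF-beta1 acts on the same neurons. TGF-beta ligands are secreted in a latent form, and once freed they bind type II and type I receptors, of which TGFBR1 is the type I kinase, and signal through Smad proteins.

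The arrays had median deposited signals between 79.8 and 122, no pair held identical values, and pairs of arrays correlated between 0.967 and 0.979 across probe sets. The largest trimmed mean signal of an array (without the top and bottom 2% of values) was 1.42 times the smallest, so arrays were brought to a common distribution, and all levels below are normalized log2(signal + 16). Log2 values of different probe sets cannot be ranked as amounts of RNA. Of the hypothalamic markers, the peptide genes Avp, Oxt, Pmch and Hcrt had mean levels of 11.80, 11.77, 12.72 and 10.25, while the probe sets of the peptide genes Pomc (4.49) and Gnrh1 (6.03) and of the transcription factors Sim1 (5.72) and Six3 (5.04) lay below the filter on dim probe sets. Of the pituitary markers, Cga, the glycoprotein hormone subunit, had a mean of 10.72, and Lhb, Fshb and Tshb had means of 7.25, 6.41 and 7.09. The pituitary markers Gh1 (5.47), Prl (4.54) and Pou1f1 (5.06) lay below the filter. Of 15 astrocyte markers 14 were tested, with Gfap at 12.16 and Gja1 at 12.61, and their summed normalized signal was 46352 to 47148 in juvenile, 47179 to 48232 in early pubertal and 46362 to 50113 in late pubertal animals.

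Start-site sequences were available for 8 of the 10 members in RefSeq's GRCr8 assembly, the exceptions being Erbb3 and Nrg1. Those of Egfr, Tgfa and Tgfb2 are shown because they carry the receptor and ligand of the best known pair and the member with the lowest p-value below. Each runs 5′ to 3′ on the gene's strand from 250 bases before the start to 50 after it, at chr14:95378376-95378675 on the plus strand for Egfr, chr4:120175469-120175768 on the plus strand for Tgfa and chr13:100792636-100792935 on the minus strand for Tgfb2. Capitals mark a GC box (GGGCGG, read on either strand) in Egfr and Tgfa and an E-box (CACGTG) in Tgfb2.
Egfr: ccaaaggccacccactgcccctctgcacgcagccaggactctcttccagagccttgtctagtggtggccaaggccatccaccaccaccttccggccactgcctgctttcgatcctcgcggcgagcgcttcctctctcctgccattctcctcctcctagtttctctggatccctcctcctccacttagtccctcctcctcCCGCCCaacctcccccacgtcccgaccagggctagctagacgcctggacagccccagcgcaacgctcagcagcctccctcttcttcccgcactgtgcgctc
Tgfa: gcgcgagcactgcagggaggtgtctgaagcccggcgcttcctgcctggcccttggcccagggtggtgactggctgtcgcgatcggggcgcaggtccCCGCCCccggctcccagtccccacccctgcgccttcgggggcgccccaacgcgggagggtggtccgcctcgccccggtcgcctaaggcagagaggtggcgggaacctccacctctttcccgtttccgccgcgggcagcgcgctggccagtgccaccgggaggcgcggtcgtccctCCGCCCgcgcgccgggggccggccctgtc
Tgfb2: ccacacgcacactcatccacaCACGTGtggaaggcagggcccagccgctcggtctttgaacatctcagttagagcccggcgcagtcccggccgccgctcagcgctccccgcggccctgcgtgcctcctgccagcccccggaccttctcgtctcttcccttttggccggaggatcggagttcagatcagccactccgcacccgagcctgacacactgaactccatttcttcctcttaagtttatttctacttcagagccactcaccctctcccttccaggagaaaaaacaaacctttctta
The member start sites were GC-rich, from 57.7% GC in Tgfb1 to 76.7% in Tgfa, beside a median of 51.7% over 33469 start sites of the same length. A GC box was found in 6 of the 8 (Egfr, Erbb2, Erbb4, Tgfa, Tgfbr1 and Adam17), against 33.1% of all start sites. CCAAT was found in Erbb2 and Tgfbr1 (37.5% of all), and CACGTG in Tgfb2 alone (6.42% of all). None of the 8 held TATAAA (14.2% of all), the cAMP response element TGACGTCA (1.83%), the AP-1 motif TGANTCA (7.33%) or the full palindromic oestrogen response element (0.0269%). Both strands were searched for every motif, and a match describes letters only.

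Whether the members differ between stages was tested with limma on the 18625 probe sets whose mean lay above the 40th percentile (a log2 level of 6.30, or a normalized signal of 62.8). Of the member probe sets, 9 passed this filter and stand for 7 genes, and 13 lay below it, including every probe set of Erbb2, Erbb4 and Nrg1. Tgfb1 (mean 6.38) and Erbb3 (6.42) lay just inside the filter, and the dimmer Tgfbr1 probe set 1369504_at (6.29) and Nrg1 1369783_a_at (6.23) just outside. No member passed the test in any comparison, and neither did any other probe set: 0% of the 18625 were called at a Benjamini-Hochberg adjusted p of 0.05 in each of the 3 pairwise comparisons and in the F test over stages. At an unadjusted p under 0.05 there were 831 probe sets (4.46%) between early pubertal and juvenile animals, 772 (4.14%) between late pubertal and juvenile, 971 (5.21%) between late and early pubertal, and 786 (4.22%) by the F test. The statements below are therefore values with their errors, and a difference that misses the threshold does not show that stages were alike.

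Between early pubertal and juvenile animals, 3 of the 9 tested member probe sets were higher and 6 lower, with a median log2 difference of -0.05 against -0.0014 over all tested probe sets. Without early pubertal replicate 8 the split turned to 6 higher and 3 lower, and leaving out another array gave 1 to 4 higher. The largest were Tgfb2 1387172_a_at at -0.34 ± 0.13 (SE), Erbb3 at 0.26 ± 0.42 and Egfr 1381145_at at -0.24 ± 0.16. Tgfb2 was the 1 member probe set with an unadjusted p under 0.05. The early pubertal and juvenile ranges were apart for 2 of 9 member probe sets, Egfr 1381145_at and Tgfb2 1387172_a_at, as they were for 8.30% of all tested probe sets. In limma the members' adjusted p-values ran from 0.994 to 0.997.

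Between late pubertal and juvenile animals, 6 tested member probe sets were higher and 3 lower, with a median of 0.01 and a range of -0.27 (Egfr) to 0.36 (Erbb3). Leaving out each juvenile array, or late pubertal replicate 12, gave 4 higher and 5 lower. Between late and early pubertal animals, 5 were higher and 4 lower, with a median of 0.08 and a range of -0.07 (Tgfa 1387450_at) to 0.30 (Tgfa 1381449_s_at). Without early pubertal replicate 8, 3 were higher and 6 lower, and leaving out another array gave 5 to 7 higher. No tested member had non-overlapping arrays in either comparison, beside 11.4% and 11.3% of all tested probe sets, and none had an unadjusted p under 0.05. Adjusted p-values in limma were 1 for every member against juvenile and 0.923 to 0.992 between the pubertal stages. The comparisons share arrays, so their values are not independent. On the deposited level without normalization the median of all probe sets shifted by -0.24 between early pubertal and juvenile animals and by 0.22 between late and early pubertal animals, and the members followed it, with 1 of 9 higher and 8 lower in the former and 9 of 9 higher in the latter.

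**Figure D1:**
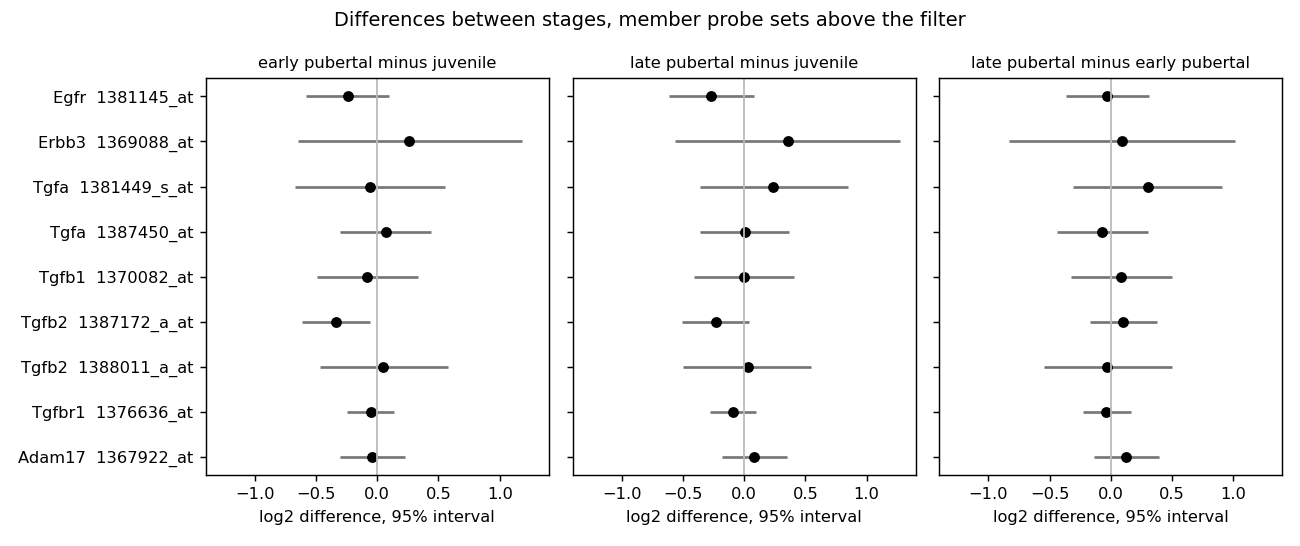
Log2 differences between stages of the 9 tested member probe sets (points, horizontal axis) with the 95% intervals of the limma fit, 1 panel per comparison and a line at 0. The interval of Tgfb2 1387172_a_at between early pubertal and juvenile animals, -0.61 to -0.06, is the 1 that does not reach 0, with an adjusted p of 0.994.

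Among the receptors, Egfr, the receptor of TGF-alpha, was read above the filter by probe set 1381145_at. In the order of replicates given above, its levels were 7.25, 7.40 and 7.38 in juvenile, 7.25, 7.18 and 6.90 in early pubertal, and 7.12, 6.86 and 7.26 in late pubertal animals. Juvenile animals were the highest group on average, but their lowest array and the highest early pubertal array differed by 0.0012, so the groups all but touched, and late pubertal replicate 20 lay inside the juvenile range. The difference from juvenile was -0.24 ± 0.16 in early pubertal animals (95% interval -0.58 to 0.10, limma adjusted p = 0.994) and -0.27 ± 0.16 in late pubertal animals (-0.61 to 0.08, adjusted p = 1). Without early pubertal replicate 10 the former was -0.13, and without late pubertal replicate 14 the latter was -0.16.

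The other Egfr probe sets gave other orders. Probe set 1370830_at, below the filter with a mean of 5.89, read 5.74, 6.02 and 5.80 in juvenile, 5.52, 5.67 and 6.02 in early pubertal and 6.05, 6.07 and 6.14 in late pubertal animals. All late pubertal arrays were above all others, by gaps of 0.0274 and 0.0304 to the nearest juvenile and early pubertal array. Late pubertal animals differed by 0.23 from juvenile and by 0.35 from early pubertal animals, with adjusted p-values of 1 and 0.921 in limma without the filter. The third, 1385413_at, lay at 4.43, near the floor that the constant sets. The probe sets' correlations with each other over the 9 arrays were -0.33 to -0.29.

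Erbb3, the neuregulin receptor of oligodendrocyte-lineage and Schwann cells, read 5.01, 6.75 and 6.88 in juvenile, 6.95, 6.02 and 6.47 in early pubertal, and 6.73, 6.32 and 6.67 in late pubertal animals. Juvenile replicate 1 stood far below the other 8 arrays. The remaining juvenile arrays, at 6.75 and 6.88, lay inside the early pubertal range and just above the highest late pubertal array, at 6.73. The differences from juvenile were 0.26 ± 0.42 and 0.36 ± 0.42 in early and late pubertal animals (limma adjusted p = 0.995 and 1). Without juvenile replicate 1 they became -0.34 and -0.25, so the sign rested on that array. Its 95% intervals, -0.65 to 1.18 and -0.56 to 1.27, were the widest of the members.

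Erbb2, the shared partner receptor, and Erbb4, the neuregulin receptor of hypothalamic astrocytes and neurons, lay below the filter with means of 5.07 and 5.48. Erbb2 read 5.68, 4.31 and 4.76 in juvenile, 5.47, 5.47 and 4.70 in early pubertal and 4.80, 5.53 and 4.85 in late pubertal animals. Erbb4 read 6.30, 4.93 and 5.98, then 4.99, 4.92 and 5.69, then 5.53, 5.82 and 5.13 in the same order. Both spread over more than a log2 unit within the juvenile group and overlapped in all comparisons, and their stage means differed by -0.54 (Erbb4, early pubertal against juvenile) to 0.30 (Erbb2, the same comparison).

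Among the erbB ligands, Tgfa, which encodes TGF-alpha, was read above the filter by both of its probe sets. Probe set 1381449_s_at gave 7.81, 7.95 and 7.82 in juvenile, 8.23, 6.94 and 8.23 in early pubertal, and 7.92, 8.25 and 8.13 in late pubertal animals. Apart from early pubertal replicate 8, which was the lowest of the 9, 5 of the 6 pubertal arrays were at or above 7.92 and the juvenile arrays at or below 7.95. The difference from juvenile was -0.06 ± 0.28 in early pubertal animals (95% interval -0.67 to 0.55) and 0.24 ± 0.28 in late pubertal animals (-0.36 to 0.85), with limma adjusted p-values of 0.997 and 1. Without early pubertal replicate 8 the early pubertal difference was 0.37 ± 0.13, with an adjusted p of 0.998 in limma, and the difference between late and early pubertal animals went from 0.30 to -0.13.

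The other Tgfa probe set, 1387450_at, did not follow this pattern. It read 6.84, 6.60 and 6.58 in juvenile, 6.58, 6.70 and 6.96 in early pubertal and 6.62, 6.61 and 6.81 in late pubertal animals, and the stages overlapped fully. Its differences were 0.07 ± 0.17, 0.01 ± 0.17 and -0.07 ± 0.17 in the 3 comparisons, and the Tgfa probe sets correlated at 0.07 over the arrays.

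Nrg1, which encodes the neuregulins that bind ERBB3 and ERBB4, was below the filter in all of its 8 probe sets, with means from 4.71 to 6.23. Probe set 1370607_a_at read 4.44, 4.94 and 5.14 in juvenile, 5.58, 5.30 and 5.77 in early pubertal, and 5.42, 5.04 and 5.39 in late pubertal animals. All early pubertal arrays were above all juvenile arrays, by a gap of 0.161, and the late pubertal arrays overlapped both groups. The early pubertal difference was 0.71, with an adjusted p of 0.994 in limma without the filter, and the other 7 Nrg1 probe sets differed by -0.38 to -0.03 in that comparison. For so dim a probe set the value follows the constant added before the log: it was 1.30 with a constant of 1 and 0.30 with 64. Over all 22 member probe sets 3, 1 and 1 had non-overlapping arrays in the 3 comparisons, beside 8.50%, 10.9% and 10.9% of all probe sets without the filter.

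**Figure D2:**
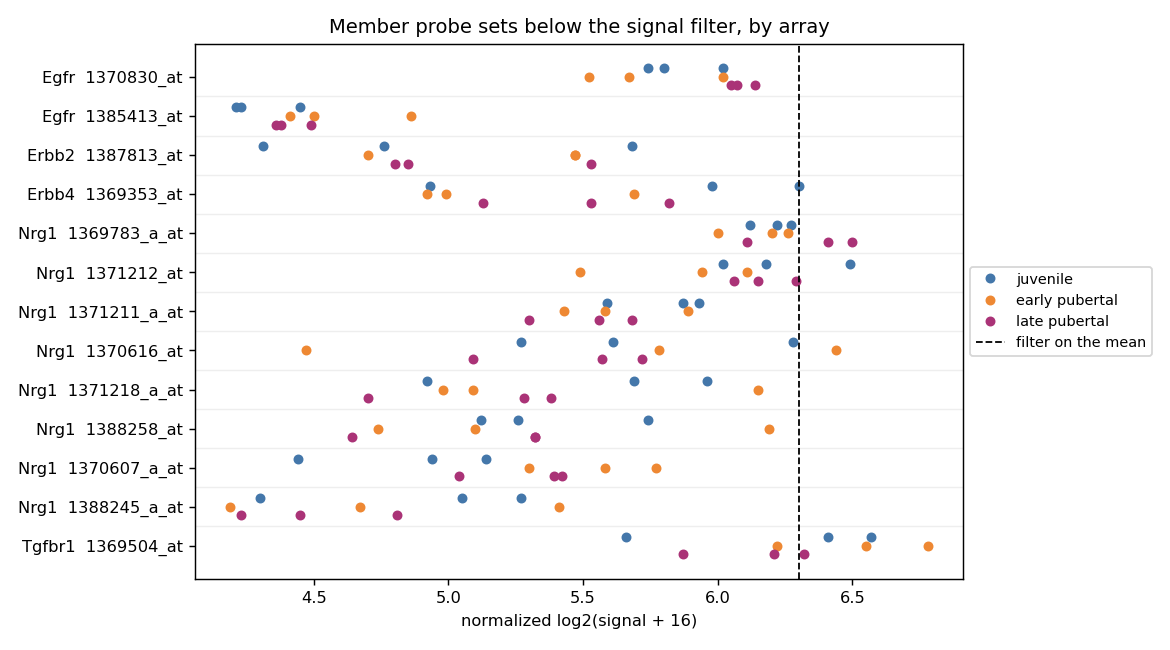
Normalized log2(signal + 16) of the 13 member probe sets below the filter, 1 point per array, coloured by stage, in a row per probe set, with the filter on the mean as a dashed line. In the row of Nrg1 1370607_a_at the early pubertal points lie to the right of the juvenile ones, and in that of Egfr 1370830_at the late pubertal points lie to the right of all others.

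Adam17, the metalloprotease that sheds TGF-alpha, was among the steadier members. It read 8.95, 9.21 and 8.85 in juvenile, 9.16, 8.81 and 8.93 in early pubertal and 9.06, 9.05 and 9.15 in late pubertal animals, with the stages overlapping. Its differences were -0.04 ± 0.12 (95% interval -0.30 to 0.23), 0.08 ± 0.12 (-0.18 to 0.35) and 0.12 ± 0.12 (-0.14 to 0.39), so the intervals end within 0.39 on the log2 scale.

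Among the TGF-beta members, Tgfb2, a ligand made by astrocytes and neurons, had the lowest p-value of the 9 tested probe sets. Its probe set 1387172_a_at read 8.07, 7.98 and 7.87 in juvenile, 7.56, 7.59 and 7.77 in early pubertal, and 7.63, 7.69 and 7.90 in late pubertal animals. The deposited signals were 293, 251 and 218 in juvenile, 170, 156 and 161 in early pubertal and 180, 193 and 264 in late pubertal animals. All early pubertal arrays lay below all juvenile arrays, by a gap of 0.106, while late pubertal replicate 20 lay inside the juvenile range.

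The difference of Tgfb2 1387172_a_at between early pubertal and juvenile animals was -0.34 ± 0.13, a ratio of 0.793 (95% interval -0.61 to -0.06, limma adjusted p = 0.994). Between late pubertal and juvenile animals it was -0.23 ± 0.13 (adjusted p = 1), and between late and early pubertal animals 0.10 ± 0.13 (adjusted p = 0.936). The F test over stages gave a statistic of 3.73 (adjusted p = 0.974). On the deposited level the early pubertal difference was -0.59 with a limma adjusted p of 0.210, where the median of all probe sets was at -0.24. Leaving out each array in turn gave -0.40 to -0.29. The unadjusted limma p rose to 0.0757 without juvenile replicate 1, and to 0.0584 and 0.0512 without early pubertal replicates 7 and 8. It was 0.0518 with array weights, and stayed under 0.05 without any other single array. The other Tgfb2 probe set, 1388011_a_at, read 7.09, 6.66 and 7.12, then 7.06, 6.55 and 7.42, then 7.34, 6.86 and 6.75. It overlapped in every comparison, with differences of 0.05 ± 0.24, 0.03 ± 0.24 and -0.03 ± 0.24, and correlated with the first at -0.08.

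Tgfb1, the ligand best known from glia and immune cells, lay just above the filter. It read 6.37, 6.49 and 6.35 in juvenile, 6.29, 6.05 and 6.62 in early pubertal and 6.43, 6.41 and 6.37 in late pubertal animals. The early pubertal arrays spread on both sides of the other groups, and the differences were -0.08, 0.00 and 0.08, each with an SE of 0.19.

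Tgfbr1, the type I receptor, was read brightly by 1376636_at, at 10.05, 10.24 and 9.98 in juvenile, 9.98 to 10.12 in early pubertal and 9.90, 10.01 and 10.09 in late pubertal animals. The stages overlapped, with differences of -0.05 ± 0.09 (95% interval -0.25 to 0.14), -0.09 ± 0.09 and -0.04 ± 0.09, the smallest errors of the members. The dimmer probe set 1369504_at differed by 0.31, -0.08 and -0.38 and correlated with the first at -0.70.

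**Figure D3:**
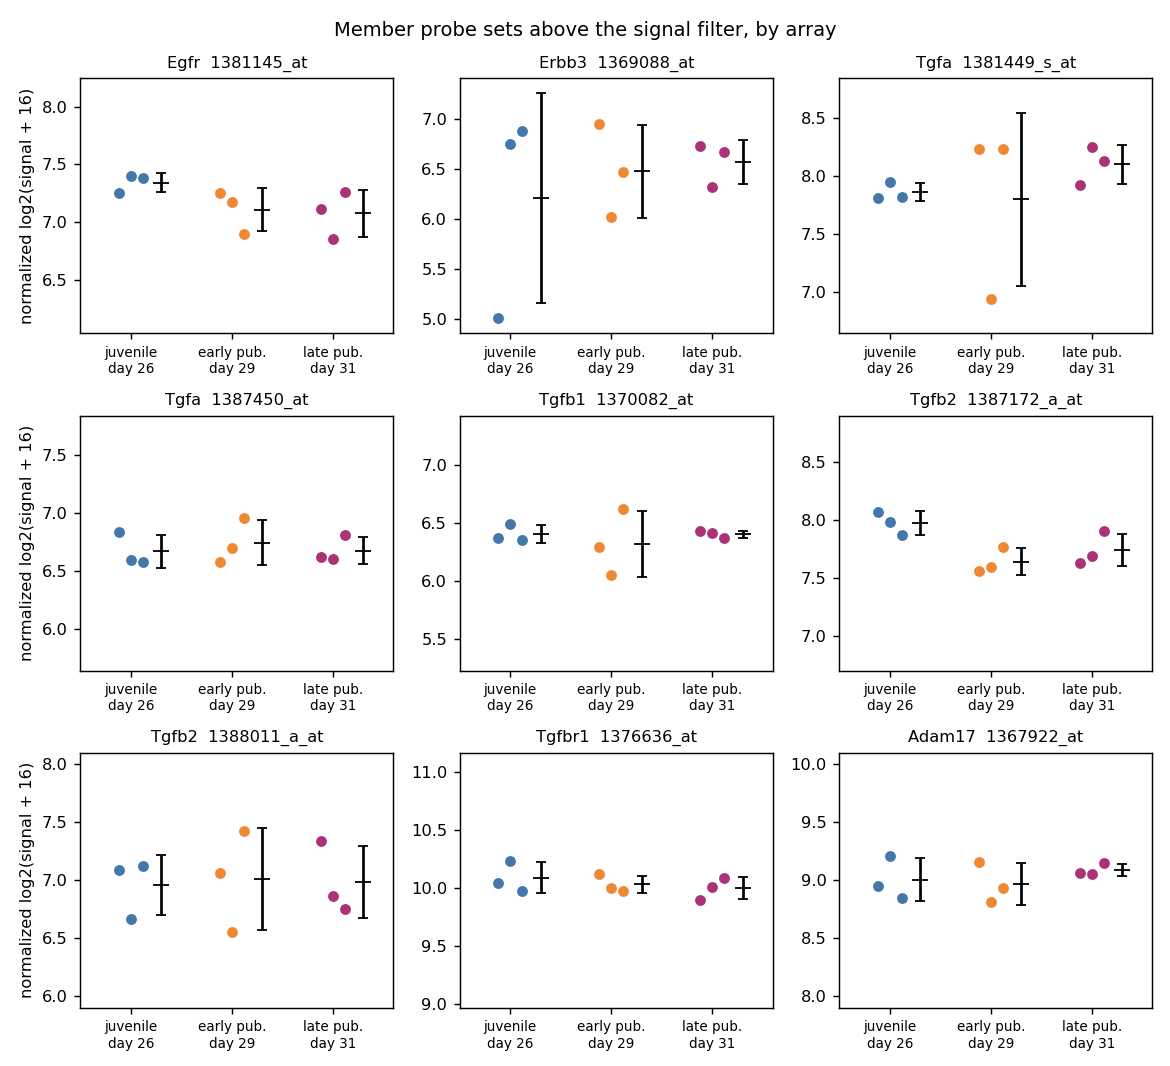
Normalized log2(signal + 16) of the 9 tested member probe sets, 1 point per array, by stage, with the stage mean and SD. Erbb3 in juvenile replicate 1 (5.01) and Tgfa 1381449_s_at in early pubertal replicate 8 (6.94) stand apart from their groups.

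The wider pathway was described with 9 lists of 102 genes, of which 89 are on the array and 65 have a tested probe set (the brightest is used for each gene). None of the 65 passed the test in limma. Between early pubertal and juvenile animals 41 were higher and 24 lower, with a median of 0.04, while on the deposited level 10 were higher and 55 lower, and without early pubertal replicate 10, 30 and 35. An unadjusted p under 0.05 was found for 6 of the 65, 1 higher and 5 lower (4.46% of all tested probe sets). Arrays did not overlap for 5, 1 higher and 4 lower (8.30%). Between late pubertal and juvenile animals 35 were higher and 30 lower, with a median of 0.02. After median centring of the arrays 29 were higher and 36 lower. Such a p was found for 5 genes, 4 higher and 1 lower (4.14% of all), and 11 had no overlap, 7 higher and 4 lower (11.4%). Between late and early pubertal animals 36 were higher and 29 lower, with a median of 0.01, and 58 and 7 on the deposited level. Such a p was found for 3 genes, 1 higher and 2 lower (5.21% of all), and 8 had no overlap, 3 higher and 5 lower (11.3%). The lists were chosen with earlier results of these data known, so their shares cannot be weighed against those of all probe sets.

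Of the erbB ligands beside the members, 2 of 9 were tested, Egf and Nrg2, both higher in early pubertal than in juvenile animals, at 0.23 and 0.29. Nrg2, a neuregulin, read 7.13, 6.98 and 6.82 in early pubertal and 6.22, 6.42 and 5.98 in late pubertal animals. The groups did not overlap, at -0.77 ± 0.22 (limma adjusted p = 0.914), while its other probe sets, both below the filter, gave -0.28 and 0.31. Of the proteases and inhibitors of shedding, 5 were tested, and their brightest probe sets differed by 0.04 to 0.19 between early pubertal and juvenile animals, with none at p under 0.05 and 5 of 5 below 0 on the deposited level. Other tested probe sets gave -0.40 for the sheddase Adam10, and 0.00, 0.20 and 0.49 for the inhibitor Timp3.

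Among the adaptors and brakes of erbB receptors, 12 genes were tested. Lrig3, of the LRIG family of membrane proteins that bind erbB receptors, read 6.77, 5.92 and 6.35 in juvenile, 7.06, 6.97 and 6.82 in early pubertal and 6.96, 7.39 and 6.91 in late pubertal animals. Every pubertal array was above every juvenile array, the nearest being 6.82 in early pubertal against 6.77 in juvenile animals. The stage means of Lrig3 differed from juvenile by 0.60 ± 0.22 and 0.74 ± 0.22 (limma adjusted p = 0.994 and 1). Its other probe set, below the filter, gave -0.10 in both comparisons. Errfi1, an inhibitor of the EGFR kinase, read 8.89, 9.13 and 9.02 in juvenile and 9.38, 9.75 and 9.39 in late pubertal animals, without overlap, a difference of 0.49 ± 0.17 (limma adjusted p = 1). Lrig1, another brake on erbB receptors, differed by 0.26 ± 0.11 in the same comparison (limma adjusted p = 1) and by 0.28 ± 0.11 between late and early pubertal animals (adjusted p = 0.914). These were the 3 of 12 genes at an unadjusted p under 0.05 between late pubertal and juvenile animals, beside 4.14% of all tested probe sets. Because the list was chosen with earlier results of these data known, its shares cannot be weighed against those of all probe sets. Cbl and Cblb, ubiquitin ligases of the same list that direct erbB receptors to degradation, were at -0.08 and 0.02. All late pubertal arrays of Cbl lay below all juvenile arrays. In that comparison 4 of the 12 genes had no overlap, with Lrig3, Errfi1 and Lrig1 higher and Cbl lower. The share of all tested probe sets without overlap was 11.4%.

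Of the feedback and target genes of the ERK kinase pathway below the receptors, 6 were tested, and 5 were lower in early pubertal than in juvenile animals, with a median of -0.16. Spry2, a feedback inhibitor, was at -0.31 ± 0.14 and the transcription factor Etv1 at -0.24 ± 0.10, each with a limma adjusted p of 0.994 and overlapping arrays. The other 4 Etv1 probe sets gave -0.11 to 0.19. Over all tested probe sets 49.6% were higher between early pubertal and juvenile animals. Of the 5 lower genes of the list, Spry1 was at 0.00 after rounding, and Etv5 was at -0.29 while its other tested probe set gave 0.10. Dusp6 was at -0.08 ± 0.14, and the 1 higher gene was Spry4, at 0.21 ± 0.23. On the deposited level 6 of 6 were lower, with a median of -0.41 beside -0.24 for all probe sets.

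Of the TGF-beta receptors and ligands beside the members, 7 were tested. Tgfbr3, the co-receptor betaglycan, read 7.10, 6.85 and 6.67 in early pubertal and 6.28, 6.21 and 6.45 in late pubertal animals, without overlap, at -0.56 ± 0.18 (limma adjusted p = 0.914), and its other probe set, below the filter, gave 0.06. Among 12 tested Smads and Smad regulators, Tgif1, a repressor of Smad-driven transcription, read 6.69, 6.65 and 6.89 in juvenile, 5.69, 6.21 and 6.34 in early pubertal and 6.53, 6.04 and 5.98 in late pubertal animals. Juvenile arrays were above all pubertal arrays, and the differences were -0.66 ± 0.23 and -0.56 ± 0.23 (limma adjusted p = 0.994 and 1). Skil, a further Smad repressor, was at -0.19 ± 0.08 in early pubertal animals (limma adjusted p = 0.994). Zfyve9, of the same list, was at -0.31 ± 0.14 (limma adjusted p = 0.994). These were the 3 of 12 genes at an unadjusted p under 0.05 between early pubertal and juvenile animals, beside 4.46% of all tested probe sets. The same 3 had no overlap, beside 8.30%. The list was chosen with earlier results of these data known, so its shares cannot be weighed against those of all probe sets.

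Of the latency and activation genes 7 were tested, of which Dcn, the matrix proteoglycan decorin that binds TGF-beta, was at 0.33 ± 0.15 and 0.41 ± 0.15 in early and late pubertal against juvenile animals (limma adjusted p = 0.994 and 1). Among 10 tested TGF-beta responsive genes, 8 were higher in early pubertal than in juvenile animals with a median of 0.07 (1 of 10 was higher on the deposited level and 5 of 10 without early pubertal replicate 10), and the matrix protein gene Ccn2 was at 0.53 ± 0.26 in late pubertal animals without overlap (limma adjusted p = 1). Markers of the leptomeninges and fibroblasts, which include Dcn, were higher than juvenile in 13 of 13 genes at both pubertal stages. Their summed signal was 20871 to 23308 in juvenile, 22139 to 28059 in early pubertal and 23683 to 26088 in late pubertal animals. Early pubertal replicates 7 and 8, at 22601 and 22139, lay inside the juvenile range, and replicate 10, at 28059, was the highest array. Without replicate 10 the early pubertal differences were 0.21 for Dcn and -0.01 for Ccn2, and the Dcn value was 0.20 without juvenile replicate 3 and 0.53 without juvenile replicate 2. The late pubertal Dcn value was 0.27 without juvenile replicate 3. The markers' part in the late pubertal Dcn and Ccn2 values was not tested. Of 11 prostaglandin genes 4 were tested (Ptgs1, Ptges2, Ptges3 and Ptgds), and their differences in the 3 comparisons all lay between -0.10 and 0.06. Their SEs were 0.21 for Ptgs1, 0.10 for Ptges2, 0.06 for Ptges3 and 0.04 for Ptgds. Ptgds is also among the leptomeningeal and fibroblast markers. The other prostaglandin genes, among them Ptgs2, Ptges and the receptor genes Ptger1, Ptger2, Ptger3 and Ptger4, had no tested probe set.

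**Figure D4:**
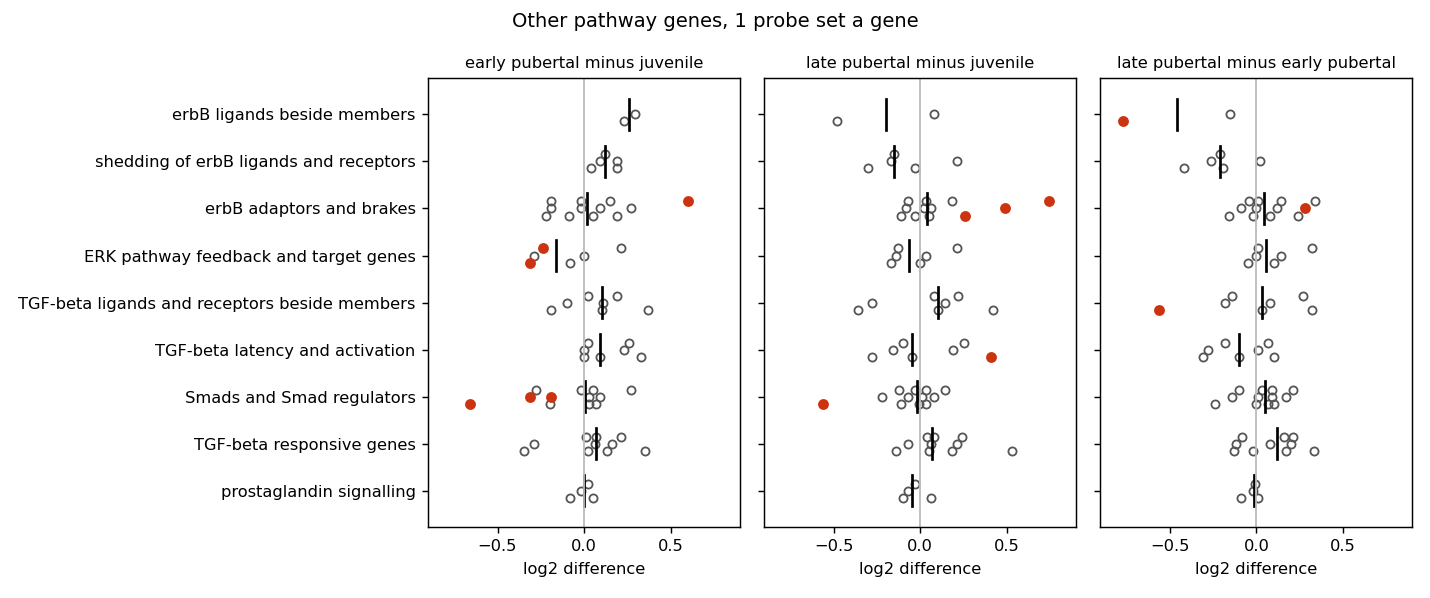
Log2 differences of the tested genes of the 9 pathway lists, 1 point per gene, by list and comparison, with the list median as a bar and genes at an unadjusted p under 0.05 marked. None of the 65 genes passed the adjusted threshold, and the list medians lie between -0.46 and 0.26.

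The probe sets of other genes whose levels followed each member most closely over the 9 arrays were found by Pearson correlation. They were Vapa (0.972) and Tbl1xr1 (0.970) for Egfr, Ankh (0.991) and Dux4 (0.962) for Erbb3, and Tm2d1 (0.987) and Ubxn8 (0.963) for Tgfa. Those of Adam17 were Atp5pf (0.982) and Galc (0.967), those of Tgfb1 were Msl3 (0.972) and Spata6 (0.967), those of Tgfb2 were Ganc and Caskin1 (both 0.935), and those of Tgfbr1 were Acot2 (0.938) and Zfp444 (0.933). The best correlation of any tested probe set with another had a median of 0.958, with 0.924 and 0.984 at the 5th and 95th percentiles. The best matches of Erbb3 and Tgfa lay above the 95th percentile, and both of these members have 1 array far from the rest.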

How the data were processed

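Total RNA from 9 female rat hypothalami, 1 animal per array, was labelled and hybridised to Affymetrix arrays, per the labels' protocols. The deposited values are linear signal intensities per probe set, which the authors made with MAS5, per the submitters' processing notes. The version and target level were not given in the sources used here, and the labels do not tie the animals to litters or batches. The p-values set stage differences against the spread between animals within stages, 3 per stage. That spread is pooled over the 9 arrays and combined with a variance prior.

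Probe sets were named through the platform annotation, in which 20826 of the 31042 probe sets other than controls have 1 symbol. Values were taken as log2(signal + 16), which understates changes of dim probe sets, and quantile-normalized. Stage means were fitted over all 9 arrays with limma 3.58.1 in R 4.3.3, with an intensity trend, and two-sided p-values were adjusted by the Benjamini-Hochberg method over the 18625 probe sets with a mean above the 40th percentile. The number of arrays, 3 per stage, limits the precision. Detection calls were not used. The code was tested on simulated data.

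Named pathway genes were up to 2 per list and comparison with the smallest p, and any past the threshold, and genes of like pattern were the 2 with the highest correlation to each member's brightest probe set. Lrig1 against juvenile, Cbl, Cblb, Zfyve9, Dusp6 and Spry4 were named after their values were seen. Members and lists were chosen with earlier results of these data known. The alternatives were constants of 1 and 64, the deposited level, median centring, no filter or a 60th percentile filter, a variance prior that was robust or lacked the trend, weighted arrays, fits on the 6 arrays compared, and leaving out each array.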

Additional observations from a re-analysis of the deposited data

How the results depend on the processing

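No member probe set was called under any alternative, and the smallest adjusted p of a member was 0.210 between early pubertal and juvenile animals, 0.496 between late pubertal and juvenile, 0.275 between late and early pubertal and 0.303 by the F test. With the level as deposited, limma called 10 probe sets (1 higher) between early pubertal and juvenile animals, 1 between late pubertal and juvenile, 21 (all higher) between late and early pubertal, and 16 by the F test, in place of 0. Array weights called 1 probe set between late pubertal and juvenile animals. Leaving out each array in turn gave 0 to 1 calls between late pubertal and juvenile animals and by the F test, the 1 call in each being without juvenile replicate 2, and 0 in the other comparisons. The other alternatives called 0. Of 1215 member values under the alternatives, 22 moved by more than the spread between replicates, 15 of them on the deposited level and 7 with another constant. The 1215 include settings that leave a difference unchanged by design, such as the filters, the variance priors and leaving out an array of the stage not compared. Signs were less steady. Leaving out 1 array turned the sign of up to 6 of 22 member probe sets in a comparison. The deposited level turned 7 of 22 between late and early pubertal animals. No paired analysis was possible because the stages share no replicate numbers. With 3 arrays per stage the SEs of tested members were 0.09 to 0.42 on the log2 scale, which limits the changes that could be told from 0, and dim probe sets understate them.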
